A study of Mus musculus with 3 samples.

Results

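The transcripts described here are 35 mouse genes of DNA repair, taken by gene symbol from a table of 24054 genes. They were grouped by pathway as 8 genes of homologous recombination, 5 of break sensing and damage signalling, 5 of the Fanconi pathway, 3 of mismatch repair, 6 of end joining, 2 of base excision and single-strand break repair, and 6 of nucleotide excision repair. All 35 were found under their symbols, and all 35 passed a filter that kept 12692 genes whose average across the libraries reached 1 CPM (the deposited scaled read counts). The cells were primary cortical neurons from embryonic day 17 C57BL/6 mice, grown for 7 days, in 3 groups of 1 library each. The hypoxia with T3 culture spent 7 hours at 0.2% oxygen with T3 (triiodothyronine, the active form of thyroid hormone) at 5 nM, the hypoxia culture spent 7 hours at 0.2% oxygen without hormone, and the control culture had 21% oxygen. The labels say neither whether a culture pooled several embryos nor what hormone the control medium held. Without replicates no difference below was tested against variation between cultures. The intervals given are exact 95% Clopper-Pearson intervals on reads and cover counting error only, and in bulk RNA fewer cells of a type and less RNA per cell cannot be told apart.

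DNA repair is divided among pathways that act on different lesions. Homologous recombination copies an intact sister chromatid and works mainly in cells that replicate their DNA, as does the Fanconi pathway, which opens crosslinks between strands. Neurons no longer divide, and they rely on end joining for double-strand breaks, on base excision and single-strand break repair for oxidised bases and nicks, and on nucleotide excision repair for bulky lesions, including a branch that is coupled to transcription. In human tumour cell lines, low oxygen is known to lower BRCA1 transcripts through E2F sites in the promoter.

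The libraries held 22533574 reads for hypoxia with T3, 17118865 for hypoxia and 18081904 for control, and the 35 repair genes took 0.0839%, 0.0833% and 0.0995% of them in that order. In the deposited CPM, used below, the 35 differed less, with sums of 804, 788 and 834 CPM. The deposited scaling leaves unequal library sums, 958205, 945496 and 837997 CPM over all genes. The reads of a repair gene summed over the libraries lay between 92 for Palb2 and 17591 for Trp53bp1, with a median of 677. Known targets of the treatments differed between the libraries. Slc2a1, the glucose transporter induced by hypoxia-inducible factor (HIF), was at 51.7, 51.1 and 8.06 CPM in hypoxia with T3, hypoxia and control, and the hormone target Hr at 23.9, 4.75 and 4.03 CPM. All 8 neuron markers were present in every library, among them Map2 at 1588, 1555 and 1429 CPM in hypoxia with T3, hypoxia and control. Of the 8, Tubb3 (739, 873 and 1771 CPM) was at least 2-fold lower in both hypoxic libraries. The astrocyte markers summed to 300, 304 and 273 CPM, while the 5 microglia markers summed to at most 1.79 CPM and the 4 endothelial markers to at most 1.77 CPM in any library.

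Promoter windows, 250 bases before to 50 bases after the annotated start, were matched in RefSeq for 29 of the 35 genes. They are shown for genes the results below turn on: Brca1 and Brca2, which had the lowest ratios of hypoxia over control, Rad52, which had the highest, and Msh6, which carries the same E2F word as Brca2. Capitals mark E2F words (TTTCCCGC, TTTCGCGC, TTTGCCGC or TTTGGCGC) and the HIF core words ACGTG and GCGTG, on either strand, and overlapping matches would run together.
Brca1 (GRCm38.p6, chr11:101551906-101552205, minus strand): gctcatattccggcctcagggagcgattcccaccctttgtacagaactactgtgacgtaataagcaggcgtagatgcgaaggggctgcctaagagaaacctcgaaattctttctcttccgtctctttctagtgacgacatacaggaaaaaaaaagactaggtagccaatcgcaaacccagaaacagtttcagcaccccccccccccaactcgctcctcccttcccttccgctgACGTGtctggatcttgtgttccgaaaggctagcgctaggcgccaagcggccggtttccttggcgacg
Brca2 (GRCm38.p6, chr5:150522371-150522670, plus strand): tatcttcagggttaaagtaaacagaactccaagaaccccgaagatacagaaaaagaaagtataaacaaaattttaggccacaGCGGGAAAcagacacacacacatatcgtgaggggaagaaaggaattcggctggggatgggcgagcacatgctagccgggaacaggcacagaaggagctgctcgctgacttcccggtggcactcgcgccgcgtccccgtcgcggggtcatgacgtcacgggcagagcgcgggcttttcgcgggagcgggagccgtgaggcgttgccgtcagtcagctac
Msh6 (GRCm38.p6, chr17:87974800-87975099, plus strand): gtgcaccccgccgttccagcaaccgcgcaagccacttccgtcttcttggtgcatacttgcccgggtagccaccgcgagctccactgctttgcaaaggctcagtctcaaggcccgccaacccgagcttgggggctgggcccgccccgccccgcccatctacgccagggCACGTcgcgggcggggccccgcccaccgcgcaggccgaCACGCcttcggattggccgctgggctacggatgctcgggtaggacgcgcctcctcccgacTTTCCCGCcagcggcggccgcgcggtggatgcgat
Rad52 (GRCm38.p6, chr6:119902448-119902747, plus strand): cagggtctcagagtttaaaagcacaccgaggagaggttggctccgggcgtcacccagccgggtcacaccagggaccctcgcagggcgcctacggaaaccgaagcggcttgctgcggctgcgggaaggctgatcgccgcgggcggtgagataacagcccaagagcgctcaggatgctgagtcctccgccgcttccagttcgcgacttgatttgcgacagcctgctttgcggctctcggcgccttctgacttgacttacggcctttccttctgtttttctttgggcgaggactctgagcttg
An E2F word was present in the windows of 6 of the 29 genes, Bard1, Brca2, Msh3, Msh6, Rad51c and Xrcc6, and in those of 4.8% of the 9536 compared genes with a window. A HIF core word was present for 19 of the 29 and for 68.8% of the compared genes. In Brca2 the E2F word GCGGGAAA stood at −168 to −161, counted from the start with negative positions before it, and in Msh6 its reverse complement TTTCCCGC stood at 16 to 23. The Brca1 window held no E2F word by these letters and 1 HIF core word at −17 to −13, and the Rad52 window held neither. A match is a string of letters and does not show that a factor was bound.

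The comparison with control asks what oxygen deprivation does to these transcripts, without and with the hormone. Most repair transcripts stayed near their control level, and the lowest and the highest ratio to control both belonged to homologous recombination. Brca2, a mediator of strand exchange, was at 5.10 CPM in hypoxia with T3, 5.52 in hypoxia and 11.4 in control, and its partner in the pathway Brca1 at 3.49, 2.65 and 6.07 CPM. Rad52, a strand annealing protein, differed the other way, at 9.27, 7.79 and 4.59 CPM.

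On the log2 scale with 1 CPM added, in hypoxia with T3 over control 0 of the 35 genes were at least 2-fold higher and 1 at least 2-fold lower, Brca2 at −1.03, beside 2.06% and 4.59% of all 12692 compared genes. In hypoxia over control 0 were at least 2-fold higher and 0 at least 2-fold lower, beside 1.99% and 4.92%. Just outside that limit lay Rad52 at 0.88 in hypoxia with T3 over control, and Brca1 at −0.95 and Brca2 at −0.93 in hypoxia over control. Without the added 1 CPM, as in the folds given with intervals below, the ratios of low genes are larger, and Brca1, Brca2, Palb2 and Rad52 each pass 2-fold in at least 1 comparison. At 1.5-fold with 1 CPM added, 1 gene was higher and 6 lower in hypoxia with T3, beside 8.73% and 13.1% of all genes, and 1 higher and 5 lower in hypoxia, beside 8.46% and 13.8%. For both hypoxic libraries the lower genes included Brca1, Brca2 and Ercc6. The median log2 ratio of the 35 was −0.10 in hypoxia with T3 and −0.10 in hypoxia, beside 0.08 and 0.05 over all compared genes. The hypoxic libraries were set against the same control library, so that these counts are not independent of each other.

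For most of these genes the reads bound the difference. The interval on the ratio of CPM lay inside a 2-fold difference in either direction for 29 of 35 genes (82.9%) in hypoxia with T3 over control, beside 79.9% of all compared genes, and for 28 of 35 (80%) in hypoxia over control, beside 78.4%. These shares are near those over all genes. In hypoxia with T3 the interval excluded a ratio of 1 on the higher side for 9 genes and on the lower side for 14, beside 40% and 29.6% of all compared genes. In hypoxia it did so for 7 and 11 genes, beside 37.8% and 30%.

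**Figure D1:**
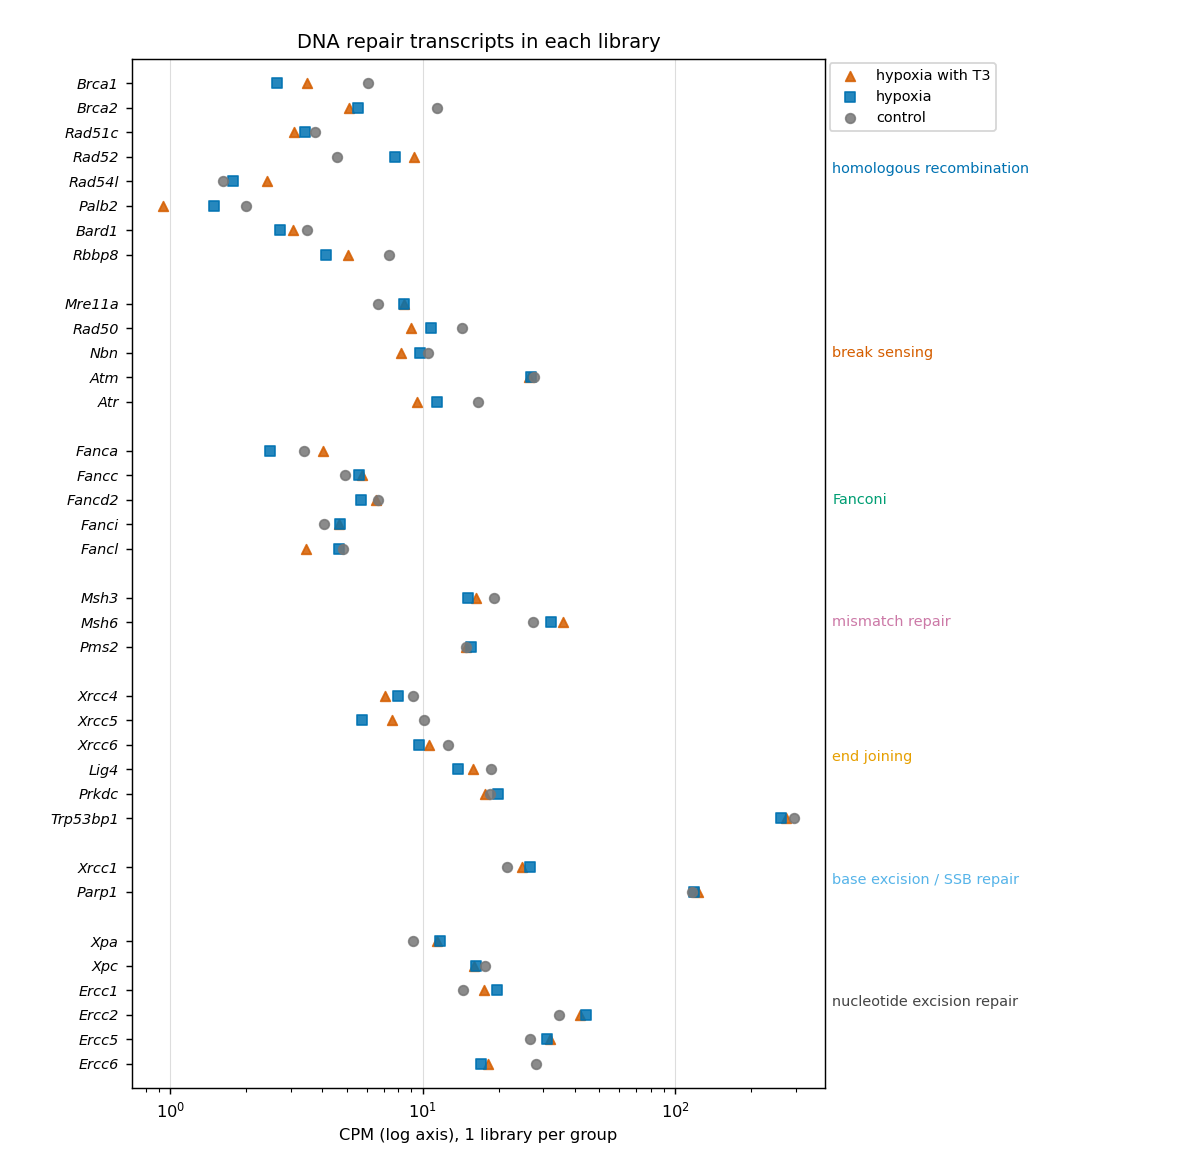
CPM of each repair transcript (log axis) in hypoxia with T3 (triangles), hypoxia (squares) and control (circles), 1 library each, with genes in rows by pathway. Trp53bp1 and Parp1 stand far to the right of the rest, and the control points of Brca1 and Brca2 lie to the right of both hypoxic points, while that of Rad52 lies to the left.

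Homologous recombination held both ends of the range. Of its 8 genes, 2 had a log2 ratio above 0 and 6 below 0 in hypoxia with T3 over control (median −0.34), and 2 and 6 in hypoxia over control (median −0.27). Over all compared genes 5530 of 12692 were below 0 with T3 and 5770 in hypoxia. The median of the 8 was below 0 under each scaling tried. Brca1 (chromosome 11, 101488764 to 101551955, minus strand, mm10) had 82 reads in hypoxia with T3, 48 in hypoxia and 131 in control. This is a level 1.74-fold lower in hypoxia with T3 (1.31 to 2.32) and 2.29-fold lower in hypoxia (1.63 to 3.26) than in control. Brca2 (chromosome 5, 150522630 to 150570329, plus strand) had 120, 100 and 247 reads in hypoxia with T3, hypoxia and control, 2.24-fold lower in hypoxia with T3 (1.8 to 2.81) and 2.07-fold lower in hypoxia (1.64 to 2.64). Both hypoxic libraries therefore lay below control for both genes by more than counting error.

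In hypoxia over control, partners of Brca1 and Brca2 differed less than these genes did. With T3 this did not hold for Palb2, which had few reads. Palb2, the bridge between these proteins, was at 0.936, 1.49 and 1.99 CPM in hypoxia with T3, hypoxia and control, from 22, 27 and 43 reads. It was 2.13-fold lower than control in hypoxia with T3 (1.25 to 3.74) and 1.34-fold lower in hypoxia (0.807 to 2.25), and the second interval includes no difference. Bard1, the ubiquitin ligase partner of Brca1, was at 3.06, 2.71 and 3.48 CPM, with intervals that include 1 in both comparisons. Rbbp8 (CtIP), which starts the resection of broken ends, was at 5.06 CPM in hypoxia with T3, 4.14 in hypoxia and 7.37 in control. That is 1.46-fold lower (1.14 to 1.86) in hypoxia with T3 and 1.78-fold lower (1.34 to 2.37) in hypoxia.

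Of the strand exchange and annealing genes, Rad52 lay on the other side of control from Brca1 and Brca2. Rad52 (chromosome 6, 119902698 to 119922828, plus strand) had 218 reads in hypoxia with T3, 141 in hypoxia and 99 in control, 2.02-fold higher in hypoxia with T3 (1.59 to 2.59) and 1.70-fold higher in hypoxia (1.30 to 2.22) than in control. It was the sole repair gene of the 35 at least 1.5-fold higher in either comparison. Rad51c, which acts in strand exchange, was at 3.10, 3.42 and 3.75 CPM, and Rad54l, a motor protein that remodels the joint between strands, at 2.42, 1.77 and 1.62 CPM in hypoxia with T3, hypoxia and control. For both, no difference from control was detectable at this depth.

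Break sensing relies on the complex of Mre11a, Rad50 and Nbn, which binds and trims broken ends, and on the kinases Atm and Atr. Their ratios to control spread from −0.74 to 0.30 on the log2 scale in hypoxia with T3 and from −0.50 to 0.29 in hypoxia. The subunits of the complex were not lowered together. Mre11a was at 8.46, 8.40 and 6.67 CPM in hypoxia with T3, hypoxia and control, while Rad50 was at 9.01, 10.8 and 14.3 CPM and Nbn at 8.21, 9.78 and 10.5 CPM. Rad50 was 1.59-fold lower than control in hypoxia with T3 (1.33 to 1.90) and 1.32-fold lower in hypoxia (1.10 to 1.59). With T3, Mre11a was 1.27-fold higher (1.02 to 1.58) and Nbn 1.28-fold lower (1.05 to 1.55). In hypoxia over control the intervals of Mre11a, 0.995 to 1.59, and of Nbn, 0.762 to 1.14, both include 1.

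The damage kinases differed from each other. Atr, which responds to single-stranded DNA at stalled forks, was at 9.48 CPM in hypoxia with T3, 11.4 in hypoxia and 16.5 in control. It was 1.74-fold lower than control in hypoxia with T3 (1.47 to 2.07) and 1.45-fold lower in hypoxia (1.22 to 1.73). With the median of genes of like span subtracted, its log2 ratio was −0.43 in place of −0.74 with T3 and −0.17 in place of −0.50 in hypoxia. Atm, the kinase activated by double-strand breaks, was at 26.3, 26.8 and 27.6 CPM. Its interval of 0.860 to 1.10 for hypoxia over control covers counting error at the deposited scaling only. With libraries scaled to equal sums its log2 ratio in hypoxia over control was −0.21 in place of −0.04.

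Fanconi genes were all low, and few differences from control were detectable at this depth. Fanca, Fancc and Fancl belong to the core ubiquitin ligase complex, with Fancl as its catalytic subunit, and Fancd2 and Fanci form the clamp that it modifies. Across the libraries the 5 genes lay between 2.49 and 6.63 CPM. In hypoxia with T3 over control all 5 intervals but that of Fancl include 1, and in hypoxia over control all 5 do. Fancl was at 3.44, 4.64 and 4.82 CPM in hypoxia with T3, hypoxia and control, 1.40-fold lower in hypoxia with T3 (1.04 to 1.89). Fanca was at 4.04, 2.49 and 3.38 CPM. It was 1.36-fold lower in hypoxia, with a wide interval of 0.926 to 2.02, and 1.19-fold higher with T3 (0.871 to 1.64). Fancd2 was at 6.55, 5.69 and 6.63 CPM, Fanci at 4.64, 4.69 and 4.08 CPM, and Fancc at 5.74, 5.58 and 4.91 CPM.

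Mismatch repair genes divide the errors among them. Msh6 serves to find single mismatches, Msh3 to find larger loops, and Pms2 acts downstream of both. Msh6, read from the plus strand of chromosome 17 (87975062 to 87990892), had 36.0 CPM in hypoxia with T3, 32.3 in hypoxia and 27.4 in control, 1.32-fold (1.18 to 1.46) and 1.18-fold (1.05 to 1.32) higher in the hypoxic libraries, the first value being that with T3. Msh3 was at 16.3, 15.1 and 19.1 CPM, 1.17-fold (1.02 to 1.35) and 1.27-fold (1.08 to 1.48) lower in the same order. Pms2 was at 14.9, 15.5 and 14.9 CPM, with no difference detectable at this depth. With the median of genes of like span subtracted, the log2 ratio of Msh6 was 0.16 with T3 and 0.02 in hypoxia, and that of Msh3 was 0.09 with T3 and 0.01 in hypoxia, no longer below 0. With equal sums Msh6 was at 0.20 with T3 and 0.06 in hypoxia.

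End joining genes lay at or below control in most comparisons. Of the 6 genes, 0 had a log2 ratio above 0 and 6 below 0 in hypoxia with T3 over control (median −0.22), and 1 and 5 in hypoxia over control (median −0.26). Over all compared genes 5530 of 12692 were below 0 with T3 and 5770 in hypoxia. With the median of genes of like genomic span subtracted, 3 of the 6 were above and 3 below 0 in each comparison. Xrcc5 and Xrcc6 encode Ku80 and Ku70, the ring that threads onto a broken end. Xrcc5 was at 7.53 CPM in hypoxia with T3, 5.74 in hypoxia and 10.1 in control, 1.34-fold (1.09 to 1.64) and 1.75-fold (1.38 to 2.23) lower. Xrcc6 was at 10.6, 9.67 and 12.6 CPM, 1.18-fold lower with T3 (0.991 to 1.41) and 1.30-fold lower in hypoxia (1.07 to 1.58).

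The other genes act in ligation and in the control of end joining. Lig4, the ligase that seals the break, was at 15.8, 13.8 and 18.7 CPM in hypoxia with T3, hypoxia and control, 1.18-fold lower with T3 (1.02 to 1.36) and 1.35-fold lower in hypoxia (1.15 to 1.59). Its cofactor Xrcc4 was at 7.06, 8.01 and 9.18 CPM, 1.30-fold lower with T3 (1.05 to 1.61) and 1.15-fold lower in hypoxia (0.920 to 1.43). Prkdc, the catalytic subunit of the DNA-dependent protein kinase, was at 17.6, 19.9 and 18.4 CPM, with intervals that include 1 in both comparisons. Trp53bp1, which shields broken ends from resection, was the most abundant of the 35 by CPM at 275, 262 and 295. Its 6472, 4750 and 6369 reads gave narrow counting intervals at the deposited scaling. It was 1.07-fold (1.04 to 1.11) lower than control with T3 and 1.13-fold (1.08 to 1.17) lower in hypoxia. With libraries scaled to equal sums its log2 ratio in hypoxia over control was −0.34 in place of −0.17. With the median of genes of like span subtracted, its log2 ratio was 0.06 with T3 and 0.04 in hypoxia, and that of Xrcc4 was 0.06 with T3 and 0.20 in hypoxia, on the other side of 0.

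In base excision and single-strand break repair, Parp1, the sensor of nicks that builds poly(ADP-ribose), was at 123 CPM in hypoxia with T3, 119 in hypoxia and 117 in control. Its interval for hypoxia over control, 0.964 to 1.08, bounds the difference closely, and with T3 the interval lay just above 1, with an upper bound of 1.11. Xrcc1, the scaffold that gathers the repair enzymes at a nick, was at 24.8, 26.5 and 21.6 CPM, 1.15-fold (1.02 to 1.30) higher with T3 and 1.23-fold (1.08 to 1.39) higher in hypoxia. With libraries scaled to equal sums the log2 ratio of Parp1 was −0.11 with T3 and −0.14 in hypoxia, on the other side of 0.

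Nucleotide excision repair had the highest pathway median in hypoxia with T3 over control, 0.25, and in hypoxia over control, 0.27. Of its 6 genes 4 had a log2 ratio above 0 and 2 below 0 in each comparison, also with libraries scaled to equal sums. Over all compared genes 7162 of 12692 were above 0 with T3 and 6922 in hypoxia, so that 4 of 6 is near the background. With the median of genes of like span subtracted it was 3 and 3 with T3 (median 0.01), where Ercc1 was at −0.02, and 4 and 2 in hypoxia (median 0.14). The Fanconi genes then had the highest median, 0.23 with T3 and 0.28 in hypoxia. Ercc1, a subunit of a nuclease that cuts the damaged strand, was at 17.5 CPM in hypoxia with T3, 19.7 in hypoxia and 14.5 in control, 1.21-fold (1.04 to 1.40) and 1.36-fold (1.16 to 1.58) higher. Ercc2 (XPD), a helicase of the TFIIH complex, was at 41.8, 44.5 and 34.7 CPM. Xpa, which checks the lesion, was at 11.4, 11.7 and 9.13 CPM, and Ercc5 (XPG), the other nuclease, at 31.9, 31 and 26.6 CPM. For Ercc1, Ercc2, Xpa and Ercc5 the intervals lay above 1 in both comparisons. Of the exons of Ercc2, 42.4% overlap those of genes on the opposite strand. These include Klc3, at 0.340, 0.276 and 0.695 CPM. More abundant opposite neighbours share exons with several of the 35, among them Rad54l, Fanci, Fanca and Xrcc6. Rad54l shares 15.4% with Lrrc41, at 69.1, 67.7 and 55.3 CPM in hypoxia with T3, hypoxia and control. In that order of libraries, Fanci shares 16% with Polg (43.7, 44.7 and 48.4 CPM). Fanca shares 10.5% with Zfp276 (18, 21 and 22.8 CPM), and Xrcc6 7.7% with Desi1 (100, 93.2 and 72.1 CPM). Reads of such pairs could not be told apart without strand. Whether the counting used strand is not given in the sources used here.

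Of the recognition factors Xpc and Ercc6 of this pathway, only Ercc6 differed from control by more than counting error. Xpc, which finds lesions across the genome, was at 15.9, 16.2 and 17.7 CPM in hypoxia with T3, hypoxia and control, and its intervals include 1. Ercc6 (CSB), which recruits repair to RNA polymerase stalled in a transcribed gene, was at 18.2, 17 and 28 CPM. It was 1.54-fold (1.36 to 1.75) lower than control in hypoxia with T3 and 1.65-fold (1.44 to 1.90) lower in hypoxia. Ercc6 was the sole gene of the 6 with an interval below 1. Other recognition genes, outside the 6, were not lowered with it. Ratios of hypoxia over control were 1.33 for Rad23b (1.29 to 1.38), 1.24 for Cetn2 (1.09 to 1.42) and 1.29 for Ddb1 (1.25 to 1.33). The intervals of Ddb2 (0.944 to 1.71), Ercc8 (0.83 to 1.16) and Uvssa (0.865 to 1.17) include 1.

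**Figure D2:**
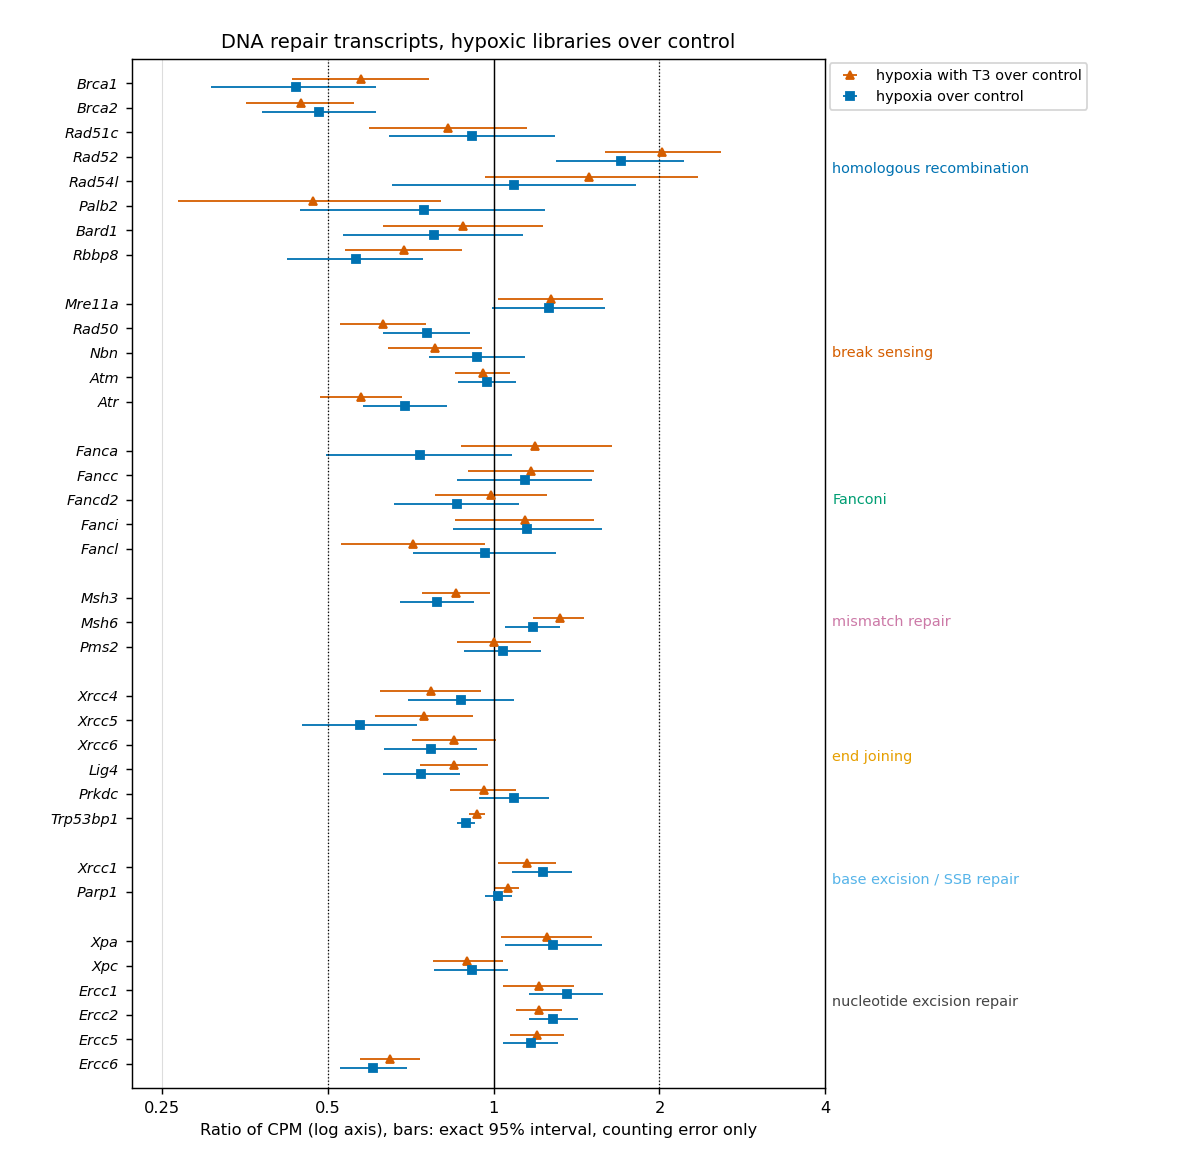
Ratio of CPM (log axis) of hypoxia with T3 over control (triangles) and hypoxia over control (squares) for each repair gene, with exact 95% intervals for counting error as bars and dotted lines at 2-fold. Brca1, Brca2, Rbbp8, Rad50, Atr, Msh3, Xrcc5, Lig4, Trp53bp1 and Ercc6 lie left of 1 in both comparisons with intervals that exclude 1. Rad52, at 2.02 and 1.70, lies right of 1 in the same way, as do Msh6, Xrcc1, Xpa, Ercc1, Ercc2 and Ercc5.

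Levels can be compared between genes only per length. Per kb of exonic sequence, averaged over the libraries, Parp1 ranked first at 22.6 CPM per kb and Trp53bp1 next at 19.6, followed by Ercc2 at 9.68 and Msh6 at 7.34. Palb2 and Rad54l ranked last at 0.201 and 0.251 CPM per kb. All 8 genes of homologous recombination were at or below 1.25 CPM per kb, the value of Rad52, and Brca1 and Brca2 stood at 0.477 and 0.539. The 6 genes of nucleotide excision repair lay between 1.64 for Ercc6 and 9.68 for Ercc2. Exonic length here is the union of annotated exons, which overstates the length of the transcripts in use.

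Gene span, the distance from the first to the last exon, moved with these ratios. Longer genes had lower ratios to control, with a Spearman's rho of −0.507 in hypoxia over the 12607 genes with an annotated span and −0.399 over the 35. These are correlations across genes of the same libraries, and genes are not independent replicates. The repair genes are longer than most, with a median span of 52.3 kb against 25.8 kb. By a limit of 40 kb, chosen after values were seen, 9 of the 14 shorter repair genes had a ratio above 0 in hypoxia over control (median 0.07, beside 0.21 over all compared genes of that length), and 5 of the 21 longer ones did (median −0.27, beside −0.26). After subtraction of the median of genes of like span the median of the 35 was 0.02 in hypoxia with T3 over control and 0.01 in hypoxia over control.

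Single genes stood at different values beside others of their length. In hypoxia over control Brca1, which spans 63.2 kb, was at −0.95 before and −0.75 after subtraction of the median of genes of like span, and Brca2, of 47.7 kb, at −0.93 and −0.87. Lig4, the shortest of the 35 at 8.64 kb, stood further below genes of its length, at −0.68. Rad52, of 20.1 kb, was at 0.51 after subtraction and Ercc6, of 67.5 kb, at −0.49. Fancc and Prkdc, which span 212 and 204 kb, stood at 0.53 and 0.49, and Atm at 0.29, all above genes of like span. The part of gene span in the differences was not tested.

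**Figure D3:**
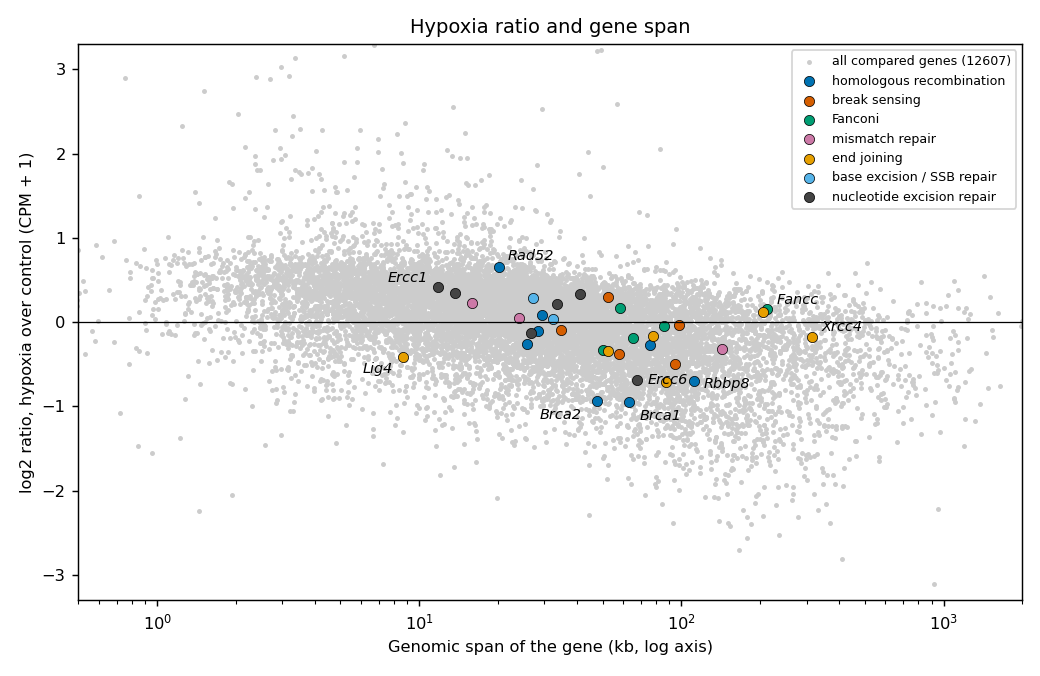
Log2 ratio of hypoxia over control (CPM plus 1) against genomic span in kb (log axis) for 12607 compared genes (grey) and the 35 repair genes (coloured by pathway). The cloud slopes down to the right, Brca1 and Brca2 lie low for genes of 63.2 and 47.7 kb, and Fancc at 212 kb lies near 0.

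Markers of dividing cells were present in these cultures and differed in part between libraries. Mki67, a marker of cycling cells, was at 41.8 CPM in hypoxia with T3, 34.8 in hypoxia and 69.4 in control, and Top2a at 43.0, 36.8 and 57.0 CPM. The 14 cycling cell markers together summed to 337, 311 and 326 CPM. Of the 14, 6 had a log2 ratio above 0 and 8 below 0 in hypoxia with T3 over control (median −0.02), and 4 and 10 in hypoxia over control (median −0.19), with Pcna, the replication clamp, at 108, 103 and 55.4 CPM among those above. Over all compared genes 5530 of 12692 were below 0 with T3 and 5770 in hypoxia. The replication helicase genes Mcm5 (16.1, 16.3 and 16.2 CPM) and Mcm6 (22.7, 23.3 and 23.3 CPM) hardly differed between libraries. Oligodendrocyte lineage markers, some of which mark dividing progenitors, summed to 190, 188 and 325 CPM, and 2 of 6, Olig2 and Pdgfra, were at least 2-fold lower in hypoxia than in control. None of the cycling or oligodendrocyte markers was at 0 in any library. The part of these cells in the lower Brca1 and Brca2 values was not tested.

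Genes of the same pathways outside the 35 came from lists of 113 repair and checkpoint genes, of which 107 were compared. In hypoxia with T3 over control 0 of the 107 were at least 2-fold higher and 1 at least 2-fold lower, with a median of 0.02, beside the background of 2.06% and 4.59%. In hypoxia over control the counts were 0 and 2, with a median of −0.02, beside 1.99% and 4.92%. The lower genes were Mlh3, of mismatch repair, and in hypoxia Exo1, a nuclease of resection and mismatch repair. Mlh3 was at 9.40 CPM in hypoxia with T3, 9.44 in hypoxia and 24.7 in control, and Exo1 at 2.34, 1.66 and 4.59 CPM. Mlh3 was 2.62-fold lower in hypoxia (2.20 to 3.13) and Exo1 2.77-fold lower (1.82 to 4.32).

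The 18 other genes of nucleotide excision repair had a median of 0.18 with T3 and 0.14 in hypoxia, with 14 and 12 above 0. Over all 12692 compared genes 7162 were above 0 with T3 and 6922 in hypoxia. Replication protein A (Rpa1, Rpa2 and Rpa3) is counted both among these 18 and among the 22 other genes of homologous recombination. The median of those 22 was −0.03 with T3 and −0.02 in hypoxia. The other genes of end joining had medians of 0.10 and 0.09, those of the Fanconi pathway −0.01 and −0.07, and those of base excision 0.02 and 0.02, the value of hypoxia with T3 standing before that of hypoxia. In the same way, the 18 checkpoint genes had medians of −0.11 and −0.17, and the 12 compared genes of translesion synthesis and direct reversal −0.03 and −0.16.

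Single genes of these lists also stood far from control. In homologous recombination the helicase gene Wrn was at 4.72, 4.36 and 9.59 CPM in hypoxia with T3, hypoxia and control, and among translesion genes Shprh, a ubiquitin ligase for the replication clamp, was at 34.7, 32.4 and 63.9 CPM. On the higher side stood Tdp2, which removes topoisomerase from broken ends, at 22, 22.3 and 12.7 CPM, Atrip, the partner of Atr, at 27.4, 29.1 and 16.7 CPM, and Ube2t, the conjugating enzyme of the Fanconi pathway, at 4.21, 3.53 and 1.90 CPM. Atr and its partner Atrip therefore lay on opposite sides of control in both hypoxic libraries. Atr spans 94.2 kb and stood closer to control after the subtraction for span, as given above. In base excision repair Parg, which degrades poly(ADP-ribose), was at 29.4, 25.8 and 41.8 CPM, and the glycosylase gene Smug1 at 15.4, 17.8 and 22.8 CPM. Of the other nucleotide excision genes Gtf2h3, a subunit of TFIIH, was the furthest from control in hypoxia, at 9.06, 8.28 and 12.2 CPM. Of the lower genes Wrn, Parg and Shprh span 151, 95.6 and 68.2 kb, and Smug1 and Gtf2h3 span 13.8 and 18.5 kb. The higher genes Tdp2, Atrip and Ube2t span 10.5, 16.2 and 11.6 kb. The part of span in these values was not tested.

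**Figure D4:**
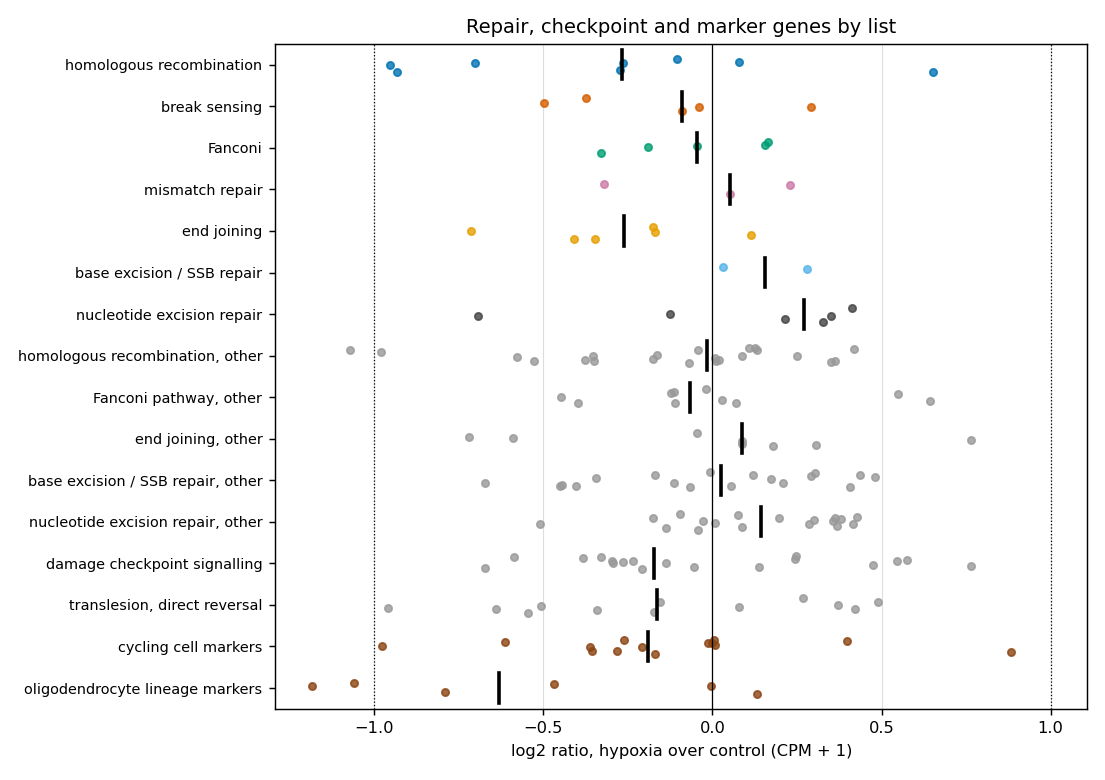
Log2 ratio of hypoxia over control (CPM plus 1) for each compared gene of the 7 pathway groups (coloured), of other genes of all these pathways but break sensing and mismatch repair, with checkpoint and translesion genes (grey), and of cycling cell and oligodendrocyte lineage markers (brown), with list medians as black bars and dotted lines at 2-fold. Exo1, among the other genes of homologous recombination, lies furthest left of the repair genes plotted, at −1.07, and the median of the nucleotide excision repair group lies at 0.27.

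The comparison of the hypoxic libraries addresses the effect of the hormone at low oxygen, and the repair genes, like most others, differed little between them. Of the 35, 0 were at least 2-fold higher and 0 at least 2-fold lower in hypoxia with T3 than in hypoxia, beside 0.126% and 0.0630% of all compared genes. At 1.5-fold the counts were also 0 and 0, beside 0.717% and 0.276%. The median log2 ratio was 0.01, as over all compared genes. The interval lay inside a 2-fold difference in either direction for 32 of 35 genes (91.4%) and inside a 1.5-fold difference for 26 (74.3%), beside 92.6% and 78.2% of all compared genes.

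The interval excluded a ratio of 1 on the higher side for 4 genes and on the lower side for 0, beside 11.1% and 6.71% of all compared genes. The 4 of 35 on the higher side are near the share over all genes. Fanca had 95 reads in hypoxia with T3 and 45 in hypoxia, a level of 4.04 against 2.49 CPM, 1.63-fold higher (1.13 to 2.37), with 3.38 CPM in control. Xrcc5 was 1.31-fold higher with T3 than in hypoxia (1.02 to 1.69), Msh6 1.11-fold, with an upper bound of 1.24 and a lower bound just above 1, and Trp53bp1 1.05-fold, with an upper bound of 1.09. Xrcc5 and Trp53bp1 with T3 lay between their levels in hypoxia and in control. Both were picked because that hypoxia library was lower, so this order is not independent of the choice. Brca1 was at 3.49 CPM in hypoxia with T3 against 2.65 in hypoxia, with an interval of 0.910 to 1.92 that includes no difference, and Brca2 at 5.10 against 5.52 CPM (0.703 to 1.22). Palb2 had the lowest ratio, 0.627, with an interval of 0.341 to 1.14 from 22 and 27 reads.

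Of the other 107 repair and checkpoint genes, 0 were at least 1.5-fold apart between hypoxia with T3 and hypoxia with 1 CPM added, although plain ratios of low genes reached that size. Rev1, a scaffold of translesion synthesis, was at 26.6 CPM with T3 and 19.4 in hypoxia, 1.37-fold higher (1.2 to 1.56), with 28.8 CPM in control. Xrcc2, of homologous recombination, was at 3.87 and 2.54 CPM, 1.52-fold (1.06 to 2.22), and Rad54b, of the same pathway, at 1.19 and 1.88 CPM, 1.58-fold lower (0.928 to 2.70). Chek2, a checkpoint kinase, was at 2.04 and 2.98 CPM with an interval of 0.454 to 1.03.

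**Figure D5:**
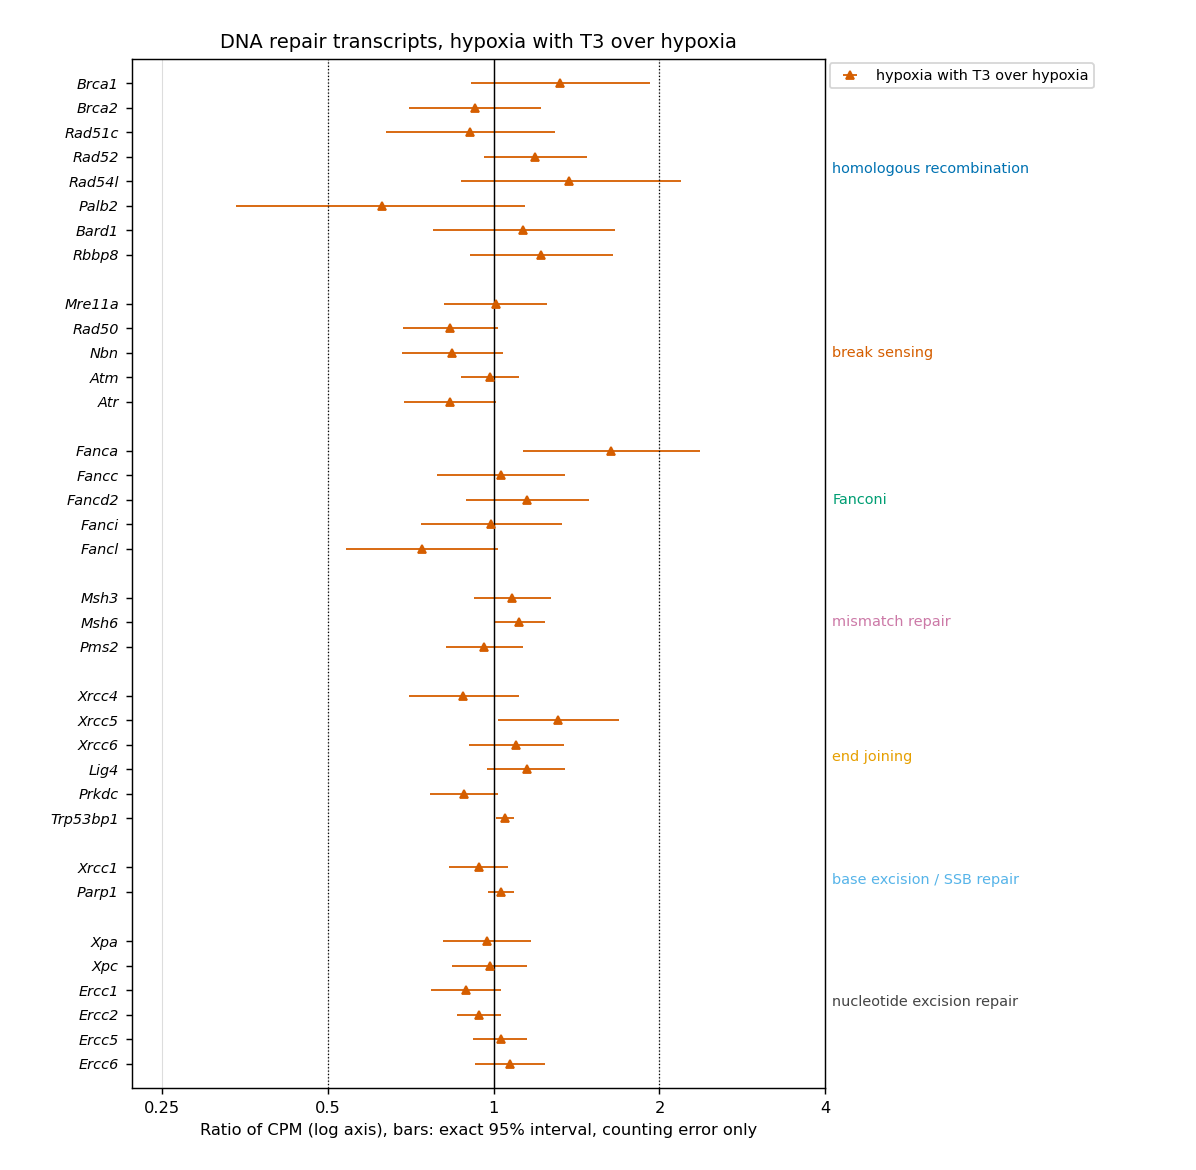
Ratio of CPM (log axis) of hypoxia with T3 over hypoxia for each repair gene, with exact 95% intervals for counting error as bars and dotted lines at 2-fold. The points gather around 1, with Fanca the furthest right at 1.63 and Palb2 the furthest left at 0.627.

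The authors' deposited tables set each hypoxic library against control, and the test behind them is not given in the sources used here. In the authors' deposited table for hypoxia with T3, 0 of the 35 repair genes had a false discovery rate below 0.05 and 0 a p-value below 0.05, while 6.18% of its 13152 genes had such a p-value. In the authors' deposited table for hypoxia the counts were 0 and 0, beside 6.34%. The lowest p-values in the authors' deposited tables were 0.0533 for Brca2 with T3, at a signed fold of −2.36, and 0.0587 for Brca1 in hypoxia, at −2.39, folds below 1 being written there as their negative inverse. These p-values come from 1 library against 1.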

How the data were processed

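Primary cortical neurons of the mouse gave 1 strand-specific library in each of 3 groups (KAPA kit, per the labels). Per the submitters' processing notes, bcl2fastq 2.17, Bowtie2 2.1.0, RSEM 1.2.15 and the build mm10 were used, with no roles given. The authors deposited a table of 24054 genes in CPM, scaled by TMM according to its name. They also deposited 2 tables of comparisons, whose columns per the file headers are a signed fold, a p-value and an FDR (false discovery rate). The value columns beside them are the same reads as signal on another scale, as deposited by the authors, and were not used.

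All CPM values were whole multiples, within 0.01, of the value of 1 read (100% of values), which gave the reads. A read stood for 0.0425, 0.0552 and 0.0463 CPM in hypoxia with T3, hypoxia and control, and the limit for a gene without reads, taken as 3 reads, was 0.128, 0.166 and 0.139 CPM. The intervals treat reads as independent, which reads without molecular identifiers are not.

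The members and lists were chosen with earlier results of these data known. Genes averaging at least 1 CPM (12692) entered the log2 ratios, with 1 CPM added to each value, and those past 2-fold were counted. Folds printed with an interval have nothing added. With 1 library per group there is no test. The rule for naming asked for members at least 2-fold apart or near it and for the highest and lowest ratios of each pathway, and of other genes for those at least 2-fold apart or else the furthest of a list. All 35 members are given. Of 15 lists, 8 held other repair and checkpoint genes, and 5 more were added after the members' values were seen. The list of other mismatch repair genes and some single genes are not reported here. Faap24 and Faap100 were not found under these symbols.

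Coordinates, span and exonic length came from GENCODE M21 (GRCm38, the assembly of mm10), matched for 99.3% of compared genes, and promoter sequences from RefSeq (GRCm38.p6). Of the 31-base words of the 35 genes, at most 34.1% (Ercc2) occur in another gene. Alternatives changed the added value, the filter, the scaling, the centring and the fold. The calculations were tested on simulated data in Python 3.11.15 with scipy 1.17.1, numpy 2.4.6 and pandas 2.3.3, and figures were drawn with matplotlib 3.10.9.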

Additional observations from a re-analysis of the deposited data

How the results depend on the processing

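The count of repair genes at least 2-fold lower rests on Brca1, Brca2 and Palb2, which lie near the limit. In hypoxia with T3 over control it was 1 as reported, 2 with 0.1 CPM added and 0 after subtraction of the median of genes of like span. In hypoxia over control it was 0 as reported, 1 with 0.5 CPM added, 2 with 0.1 CPM added, 2 with libraries scaled to equal sums and 1 after subtraction of the median of all compared genes. With 1.5-fold as the limit the counts in hypoxia with T3 over control were 1 higher and 6 lower, and in hypoxia over control 1 higher and 5 lower. The median of the 35 in hypoxia with T3 over control, −0.10, was −0.29 with equal sums, −0.18 after subtraction of the median of all compared genes and 0.02 after subtraction of that of genes of like span. Why these values moved was not tested. In hypoxia with T3 over hypoxia the counts at least 2-fold apart were 0 under each of these alternatives, and the median lay between −0.02 and 0.01. Equal sums moved the median of all compared genes from 0.08 to −0.10 in hypoxia with T3 over control and from 0.05 to −0.11 in hypoxia over control, with 199 higher and 917 lower genes in place of 262 and 582, and 192 and 970 in place of 252 and 624. Of single ratios, 36 of 711 under the alternatives moved by more than 0.5 of the width of their counting interval on the log2 scale. Of the 36, 23 moved by the subtraction for span and 12 by equal sums. The 711 include 105 ratios without the filter and 81 with the filter at 5 CPM. These could not move, because a filter leaves a ratio unchanged. No paired analysis was possible because each group has 1 library, which also left no residual degrees of freedom for a count test on the recovered reads. Depth limits the genes under 100 reads in every library, 5 of the 35.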

Other observations

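Genes that work beside the repair pathways, on lists chosen after the repair values were seen, included some with larger differences. Among enzymes of the nucleotide pool, Rrm2b, the p53-regulated subunit of ribonucleotide reductase used outside S phase, was at 11.7 CPM in hypoxia with T3, 9.11 in hypoxia and 24.3 in control, 2.67-fold lower in hypoxia (2.24 to 3.20). Its relatives did not follow: Rrm1, the large subunit, was at 55.7, 47.1 and 46.8 CPM and Rrm2, the S phase subunit, at 29.9, 26.0 and 32.4 CPM. Nudt1, which removes oxidised nucleotides, was at 4, 5.63 and 3.20 CPM and Dctpp1, which removes modified cytosine nucleotides, at 18.2, 19.1 and 11.8 CPM. Of the 12 pool enzymes 7 had a log2 ratio above 0 in hypoxia over control (median 0.01), beside 6922 of all 12692 compared genes.

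Of 10 chromatin factors that act at breaks, 8 had a log2 ratio below 0 in hypoxia with T3 over control (median −0.15) and 8 in hypoxia over control (median −0.21). Over all compared genes 5530 of 12692 were below 0 with T3 and 5770 in hypoxia. The remodeller genes Smarcad1 (24.9, 22 and 58.9 CPM in hypoxia with T3, hypoxia and control) and Ino80 (16.9, 17.2 and 33.6 CPM) were lower in the hypoxic libraries, and the deacetylase gene Sirt1 was higher at 38.0, 35.4 and 18.4 CPM. Nipbl, which loads cohesin, was at 53.7, 51.8 and 109 CPM, and the cohesin subunit genes Stag1 (27.2, 26.6 and 41.8 CPM) and Stag2 (51.8, 54.8 and 73.7 CPM) were also lower. The ring genes Smc1a (97.8, 96.3 and 85.1 CPM), Smc3 (69.9, 68.5 and 79.2 CPM) and Rad21 (144, 143 and 149 CPM) differed less, and of the 11 genes of cohesin and the related SMC5/6 complex 6 were below 0 in hypoxia over control (median −0.06). Of 9 compared genes of the PARP family other than Parp1 and Parp2, 4 were above and 5 below 0 in hypoxia over control. Of these 9, 1 was at least 2-fold lower, Parp16, a member in the endoplasmic reticulum. It was at 1.15, 1.05 and 4.54 CPM, from 27, 19 and 98 reads, 4.33-fold lower in hypoxia than in control (2.63 to 7.49). Nipbl spans 154 kb, Ino80 105 kb, Smarcad1 73.5 kb and Parp16 43.9 kb, and the part of span in these values was not tested.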
